A study of Saccharomyces cerevisiae with 10 samples.

Results

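The 1 h libraries of a yeast salt stress time course were set against its 0.5 h libraries, 4 of the 10 libraries, chosen by the time that the sample labels give. The 1 h group was wild-type Saccharomyces cerevisiae of strain BY4741 after 1 h in 1.5 M KCl, with 2 libraries, and the 0.5 h group was the same strain after 0.5 h in 1.5 M KCl, with 2 libraries. Both groups grew in synthetic complete medium, and KCl was added to shaking cultures in log phase. BY4741 is a MATa laboratory haploid in which HIS3, LEU2, MET17 and URA3 are deleted, and both groups share these deletions. Neither group was unstressed. The 0 h libraries, taken at the start of the stress, and the 1.5 h libraries are used below to place the interval, and all 10 libraries entered the fit, where they share the scaling and the estimate of the spread. Each group held 1 library of replicate time series a and 1 of series b, which the design text calls independent, without saying how the cultures were started, so p-values measure the spread between these libraries. RNA came from whole cells of bulk cultures, so fewer cells with a transcript and less of it per cell cannot be told apart.

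Budding yeast placed in concentrated salt loses water and turgor. The high osmolarity glycerol (HOG) pathway, a kinase cascade that ends in Hog1, then raises the synthesis of glycerol, which the cell keeps as a compatible solute. Hog1 acts through transcription factors that include Hot1, Sko1, Msn2 and Msn4, and the last pair also serves the environmental stress response, in which genes of protective sugars, chaperones and redox enzymes rise while genes of ribosome assembly and translation fall.

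Reads on coding sequences totalled 3862638 and 7851019 in 1 h libraries a and b, and 4913739 and 8325291 in 0.5 h libraries a and b. Levels are counts per 1000000 reads (CPM) scaled with edgeR's TMM factors, and fold changes are log2 values of 1 h over 0.5 h with the standard error (SE) implied by edgeR's quasi-likelihood test. On the leading principal component of all 10 libraries the 1 h libraries lay at -1.39 and -1.62, and the 0.5 h libraries at -45.33 and -44.96. Of 7 MATa marker genes, 6 were called lower and ASG7 higher, and their summed level was 1559 to 1582 CPM at 1 h, against 2269 to 2492 CPM at 0.5 h. The summed level of 6 genes that mark MATalpha cells was 84.3 to 89.1 CPM at 1 h, against 71.1 to 71.6 CPM at 0.5 h. Of the 4 deleted genes, LEU2 and MET17 had 0 reads in every library and HIS3 had 1 read in each 1 h library, against 2 and 1 reads in the 0.5 h libraries. URA3 had 4 and 0 reads in the 1 h libraries, against 162 and 0 reads in the 0.5 h libraries, so 0.5 h library a goes against the strain's genotype at this gene. The part of that library in the results was not tested, and without it 1796 genes were called higher and 1716 lower.

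Of 5943 coding sequences tested, 1955 (32.9%) were called higher at 1 h and 1907 (32.1%) lower, at an edgeR adjusted p under 0.05. In size the directions were unequal. Changes of at least 2-fold comprised 542 genes higher (9.12%) and 9 lower (0.151%), changes of at least 4-fold 157 higher and 0 lower, and changes of at least 16-fold 16 higher and 0 lower. The median called rise was 0.62 and the median called fall -0.40 on the log2 scale. Both 1 h libraries lay above both 0.5 h libraries for 2476 genes (41.7%), and below them for 2414 (40.6%). For the genes at least 2-fold higher, the median of their mean levels was 59.4 CPM at 1 h, against 17.2 CPM at 0.5 h. The genes called lower had a median of 117.5 CPM at 1 h, against 156.1 CPM at 0.5 h. Over all genes tested the medians were 73.6 CPM at 1 h and 68.75 CPM at 0.5 h. Both sets were chosen by this same comparison, so the direction of their medians follows from the choice.

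**Figure D1:**
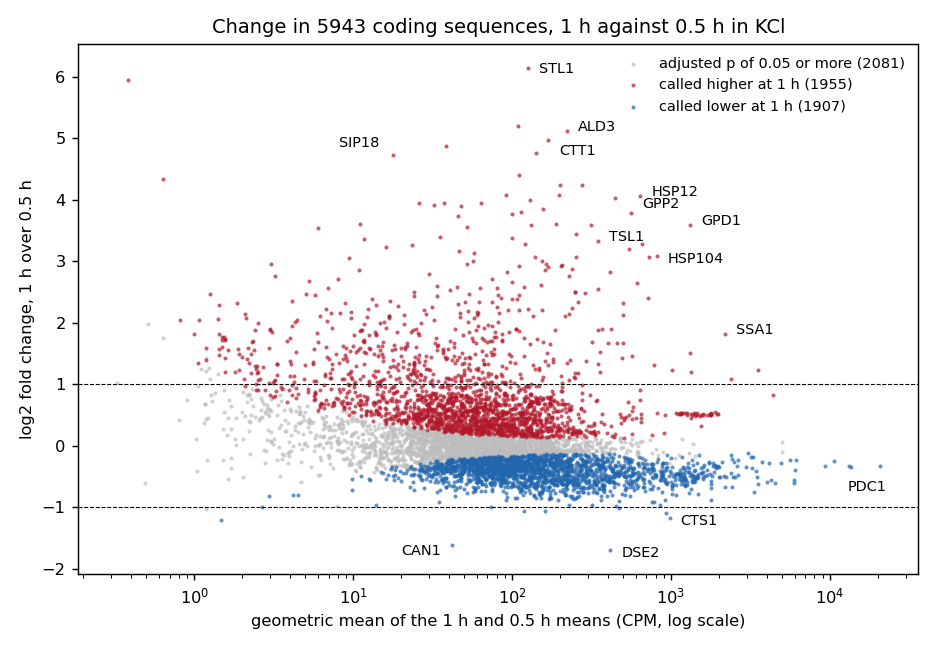
Each point is a coding sequence, with the geometric mean of its 1 h and 0.5 h levels (CPM, log scale) across and its log2 fold change, 1 h over 0.5 h, upwards; red points were called higher and blue points lower, and dashed lines mark 2-fold changes. The rises reach 6.14 for STL1, while the falls end at -1.70 for DSE2.

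The gene with the largest rise was STL1, which encodes a plasma membrane symporter that takes up glycerol with protons. It stood at 1054 and 1045 CPM in the 1 h libraries, against 15.6 and 14.4 CPM in the 0.5 h libraries. Both 1 h libraries were far above both 0.5 h libraries, a 70.6-fold difference (log2 fold change 6.14, SE 0.08, edgeR adjusted p = 7.3e-22). In the interval before, from 0 h to 0.5 h, its log2 change was -0.12 (edgeR adjusted p = 0.54), and in the next, from 1 h to 1.5 h, it was 0.93 (1.8e-12). These neighbouring changes share libraries with the 1 h to 0.5 h comparison, so they are set beside it here and below as separate values.

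The sequences upstream of 7 genes are shown because these genes carry the main rises and a main fall, and because their windows hold motifs that bear on the groups described below. Each window runs from base 400 to base 101 before the start codon, 300 bases on the plus strand of the R64 reference of RefSeq, 5′ to 3′. In the windows of the 6 genes that rose, capitals mark AGGGG on either strand (written CCCCT where it is on the other strand), the stress response element known as a site of Msn2 and Msn4. In the HSP104 window capitals also mark TTCNNGAA, a core of the heat shock element of Hsf1. In the window of CIC1, a ribosome biogenesis gene that fell, capitals mark AAAATTTT, the core of the element called RRPE, and GATGAG, the element called PAC (CTCATC on the other strand). No marked match overlaps a match of another motif. STL1 (chrIV:1507605-1507904) has 1 AGGGG match, GPD1 (chrIV:411425-411724) 2, CTT1 (chrVII:654234-654533) 3, HSP12 (chrVI:106856-107155) 3, TSL1 (chrXIII:70224-70523) 5 and HSP104 (chrXII:88223-88522) 3 with 2 heat shock matches, while CIC1 (chrVIII:210448-210747) has 1 match of each of its motifs. The HSP12 window shares 108 bases with the reading frame YFL015C and the TSL1 window 88 bases with YML100W-A.
STL1: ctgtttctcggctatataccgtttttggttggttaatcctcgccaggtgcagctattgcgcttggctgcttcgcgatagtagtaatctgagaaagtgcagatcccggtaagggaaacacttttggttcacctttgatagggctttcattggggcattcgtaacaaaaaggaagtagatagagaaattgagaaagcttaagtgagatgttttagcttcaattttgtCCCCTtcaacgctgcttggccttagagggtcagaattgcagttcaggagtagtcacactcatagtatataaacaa
GPD1: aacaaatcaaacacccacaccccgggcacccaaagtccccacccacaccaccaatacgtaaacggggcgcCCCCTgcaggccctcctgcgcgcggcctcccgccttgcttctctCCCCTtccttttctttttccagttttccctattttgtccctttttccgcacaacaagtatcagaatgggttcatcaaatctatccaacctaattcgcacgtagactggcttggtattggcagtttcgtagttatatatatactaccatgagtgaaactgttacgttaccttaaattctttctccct
CTT1: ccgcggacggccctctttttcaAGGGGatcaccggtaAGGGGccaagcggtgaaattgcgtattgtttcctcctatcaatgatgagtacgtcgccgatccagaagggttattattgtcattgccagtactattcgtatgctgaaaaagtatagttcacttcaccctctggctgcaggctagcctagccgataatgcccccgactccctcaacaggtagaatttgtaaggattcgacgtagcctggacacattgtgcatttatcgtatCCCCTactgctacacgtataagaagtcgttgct
HSP12: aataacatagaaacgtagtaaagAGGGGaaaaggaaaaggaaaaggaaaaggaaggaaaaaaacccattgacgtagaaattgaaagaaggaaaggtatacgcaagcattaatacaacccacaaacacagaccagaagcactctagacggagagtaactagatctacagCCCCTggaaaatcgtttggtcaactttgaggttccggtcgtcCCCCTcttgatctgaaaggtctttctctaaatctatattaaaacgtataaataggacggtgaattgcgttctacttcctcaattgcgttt
TSL1: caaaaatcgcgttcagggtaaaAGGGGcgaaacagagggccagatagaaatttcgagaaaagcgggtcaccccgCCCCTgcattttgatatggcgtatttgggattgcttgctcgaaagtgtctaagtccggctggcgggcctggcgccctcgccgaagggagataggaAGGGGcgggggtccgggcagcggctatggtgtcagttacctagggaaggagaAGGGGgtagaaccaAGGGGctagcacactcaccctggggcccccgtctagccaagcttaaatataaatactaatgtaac
HSP104: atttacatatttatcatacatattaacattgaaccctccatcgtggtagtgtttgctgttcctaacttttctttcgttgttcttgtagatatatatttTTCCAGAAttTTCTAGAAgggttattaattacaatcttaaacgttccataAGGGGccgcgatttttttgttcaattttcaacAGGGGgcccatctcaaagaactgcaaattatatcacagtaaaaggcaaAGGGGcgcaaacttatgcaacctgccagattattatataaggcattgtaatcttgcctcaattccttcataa
CIC1: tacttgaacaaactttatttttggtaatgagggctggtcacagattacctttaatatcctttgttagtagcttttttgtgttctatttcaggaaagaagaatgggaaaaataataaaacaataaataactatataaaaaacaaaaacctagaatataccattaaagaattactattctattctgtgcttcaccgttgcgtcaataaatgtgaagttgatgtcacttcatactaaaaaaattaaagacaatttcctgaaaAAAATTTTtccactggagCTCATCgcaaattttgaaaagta

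Such matches were counted in the same window of 5935 tested genes. AGGGG, on either strand, was in 53.7% of the windows of genes at least 2-fold higher at 1 h. It was in 34.5% of those of all genes called higher, in 16.9% of those of genes called lower and in 23.6% of all. At least 2 matches were in 20.8% of the windows of the first set and in 4.2% of all. TTCNNGAA was in 63.9% of 36 heat shock and chaperone windows and in 13.8% of all, and the share was 17.7% among genes at least 2-fold higher. GATGAG was in 63.1% of 141 ribosome biogenesis windows, in 25.3% of those of genes called lower and in 18.5% of all. AAAATTTT was in 68.8% of the biogenesis windows, in 18.5% of those of genes called lower and in 9.1% of all. ACGCGT, the MCB element of genes of S phase entry, was in 18.8% of 32 G1/S windows and in 4.0% of all. TTCNNGAA, AAAATTTT and ACGCGT read the same on both strands or are matched on both. These are matches of letters, given as a description, and say nothing of binding.

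Osmostress genes rose together and steeply. Of 39 genes known as targets of the HOG pathway, 38 were called higher and 1 lower, beside 32.9% and 32.1% of all genes, and 36 were at least 2-fold higher. The median log2 fold change of the list was 3.59, against 0.01 over all genes tested, and it was 3.57 in series a and 3.57 in series b. The list took 2.98% and 2.90% of the reads in the 1 h libraries, against 0.445% and 0.446% in the 0.5 h libraries. The member that fell was TIP1, a cell wall mannoprotein gene (-0.58, SE 0.05).

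**Figure D2:**
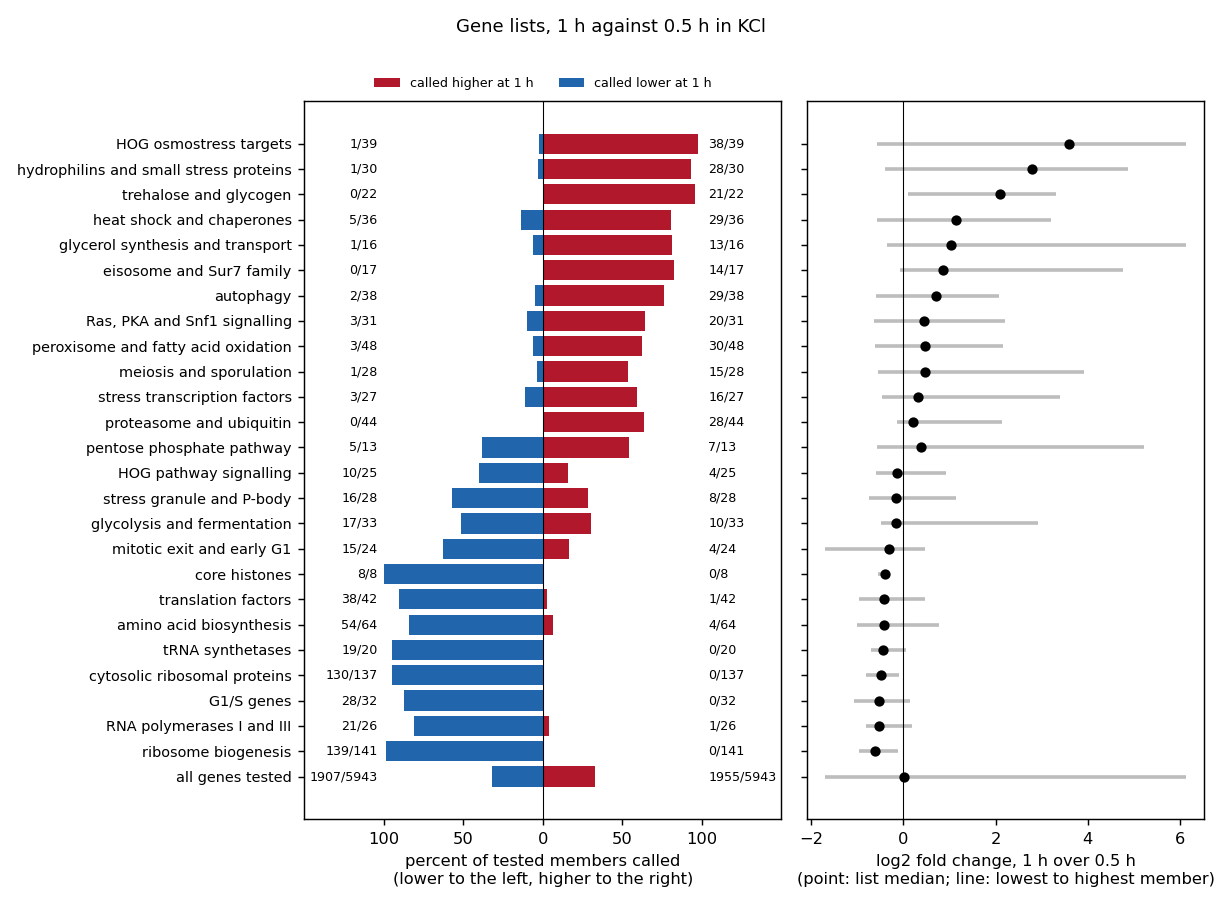
The bars give the percent of tested members of 25 gene lists, and of all genes, called higher (red, to the right) or lower (blue, to the left) at 1 h against 0.5 h, with counts beside them; points in the right panel are list medians of the log2 fold change and lines run from the lowest to the highest member. The HOG target list stands at 38 of 39 higher and the ribosome biogenesis list at 139 of 141 lower.

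Glycerol is made from a glycolytic intermediate by glycerol-3-phosphate dehydrogenase (GPD1 and GPD2) and glycerol-3-phosphatase (GPP1 and GPP2). GPD1 had 4605 and 4556 CPM in the 1 h libraries, against 376 and 383 CPM in the 0.5 h libraries, without overlap (log2 fold change 3.59, SE 0.05, edgeR adjusted p = 3.6e-21). Its gain in level was the largest of any gene by the naming rule. GPP2 had 2101 and 2059.9 CPM in the 1 h libraries, against 153 and 149 CPM in the 0.5 h libraries (3.78, SE 0.06). The paralog GPP1 started higher and rose less, with 2064 and 1970.2 CPM in the 1 h libraries, against 887 and 868 CPM in the 0.5 h libraries (1.20, SE 0.05). GPD2, the isoenzyme known for redox balance without oxygen, fell, with 197 and 197 CPM in the 1 h libraries, against 248 and 253 CPM in the 0.5 h libraries (log2 fold change -0.35, SE 0.05, edgeR adjusted p = 1.2e-05). DAK1, a dihydroxyacetone kinase gene of glycerol breakdown, rose as well (2.48, SE 0.06). Over the 16 genes of glycerol synthesis, breakdown and transport, 13 were higher and 1 lower (10 to 14 and 1 to 2 under the alternatives). Their median was 1.04, and 9 were at least 2-fold higher. FPS1, the glycerol export channel gene, had a change of -0.10 (edgeR adjusted p = 0.14).

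The rises were not all at the same stage. GPD1 had reached 94.2% of its gain between 0.5 h and 1.5 h by 1 h, and its next change was 0.08 (edgeR adjusted p = 0.12). CTT1, the cytosolic catalase gene, had reached 88.6%, STL1 52.0%, HSP12 35.3% and HSP26 29.0%. The last 2, a membrane-protecting small protein gene and a small heat shock protein gene, thus made most of their gain after 1 h.

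**Figure D3:**
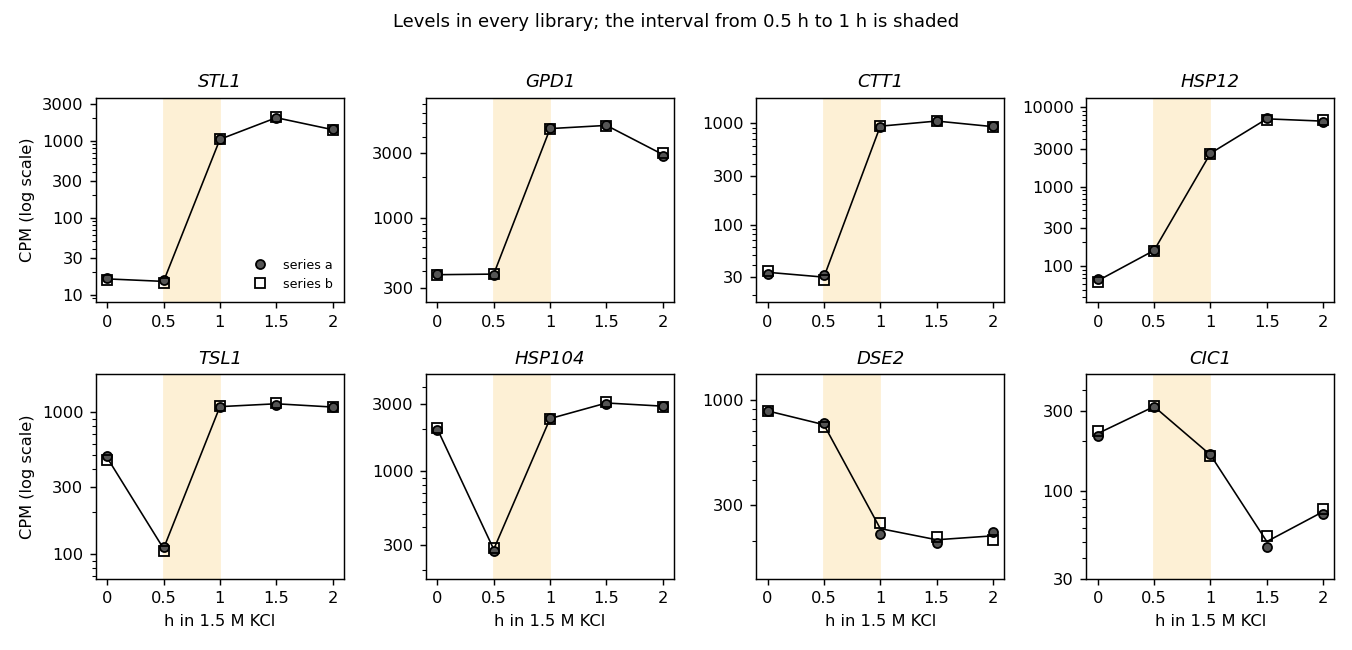
Levels (CPM, log scale) of 8 genes in every library against the time in 1.5 M KCl in h; filled circles are series a, open squares series b, lines join the means, and the interval from 0.5 h to 1 h is shaded. The 6 genes that rose cross the shaded interval in a steep step, from near their 0 h level for STL1, GPD1 and CTT1 and from below it for TSL1 and HSP104, while DSE2 and CIC1 fall.

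The rises of 5 genes of small and redox stress proteins lay between 4.07 and 5.11. CTT1 had 924 and 948 CPM in the 1 h libraries, against 31.8 and 28.6 CPM in the 0.5 h libraries (log2 fold change 4.97, SE 0.07, edgeR adjusted p = 4.6e-21). HSP12 had 2661 and 2593 CPM in the 1 h libraries, against 159 and 155 CPM in the 0.5 h libraries (4.07, SE 0.06). ALD3, a cytosolic aldehyde dehydrogenase gene, had 1328 and 1292 CPM in the 1 h libraries, against 37.4 and 38.3 CPM in the 0.5 h libraries (5.11, SE 0.06). In all 3 the 1 h libraries lay more than 16-fold above the 0.5 h libraries. GRE1, a hydrophilin gene, had 211 and 218 CPM in the 1 h libraries, against 4.64 and 8.95 CPM in the 0.5 h libraries (4.87, SE 0.12), and SIP18, another hydrophilin gene, had 95.5 and 89.2 CPM in the 1 h libraries, against 3.02 and 3.66 CPM in the 0.5 h libraries (4.73, SE 0.20). Both were scarce at 0.5 h, and their 0.5 h values rest on few reads. Of 30 hydrophilins and small stress proteins, 28 were higher, 26 of them at least 2-fold, and NOP6, which also serves in ribosome assembly, was lower (-0.40, SE 0.08). The other members of the 15 largest rises by the naming rule were RTC3 (4.24), PHM7 (4.41), GRE2 (4.08), ALD2 (4.07), MSC1 (4.03) and RTN2 (16.0-fold), beside NQM1, TKL2 and FMP45, which are described below. GRE2 encodes a methylglyoxal reductase.

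Genes of trehalose and glycogen, the protective and storage sugars of yeast, rose as a group: 21 of 22 were higher, 16 at least 2-fold, and 0 were lower, with a median of 2.09. TPS2, the trehalose-6-phosphate phosphatase gene, had 2059 and 2038 CPM in the 1 h libraries, against 214 and 207 CPM in the 0.5 h libraries (log2 fold change 3.28, SE 0.05, edgeR adjusted p = 2.8e-20). TSL1, which encodes a large subunit of the same complex, had 1093 and 1099 CPM in the 1 h libraries, against 114 and 106 CPM in the 0.5 h libraries (3.32, SE 0.06). The libraries of the times did not overlap for either. Both had been lower at 0.5 h than at 0 h, with log2 changes of -1.61 and -2.13, and 18 of the 22 genes were called lower in that interval (beside 27.6% of all genes). Of glycogen enzymes, the synthase gene GSY2 rose (2.21, SE 0.06) and so did the debranching enzyme gene GDB1 (2.62, SE 0.07). NTH1, the trehalase gene that breaks trehalose down, rose with them (2.11, SE 0.06).

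Chaperone genes split by kind. Of 36 heat shock and chaperone genes, 29 were higher and 5 lower, with a median of 1.14. From 0 h to 0.5 h, 24 of the 36 had been called lower and 6 higher, beside 27.6% and 26.0% of all genes. The median log2 change of the list from 0 h to 1 h was 0.29. HSP104, the disaggregase gene, had 2378 and 2357 CPM in the 1 h libraries, against 272 and 286 CPM in the 0.5 h libraries (log2 fold change 3.08, SE 0.05, edgeR adjusted p = 2.4e-20). The small heat shock gene HSP42 had 1649 and 1645 CPM in the 1 h libraries, against 192 and 168 CPM in the 0.5 h libraries (3.20, SE 0.06), and HSP26 had 658 and 630.1 CPM in the 1 h libraries, against 84.8 and 90.3 CPM in the 0.5 h libraries (2.87, SE 0.07). From 0 h to 1 h the log2 changes were smaller, at 0.25 for HSP104, 1.33 for HSP42 and 2.59 for HSP26. The 1 h levels were all several times the 0.5 h levels. The Hsp70 genes SSA4 (3.07), SSA1 (1.81), SSA3 (1.69) and SSA2 (1.08) rose too, and reads could be shared between these similar genes. Of the Hsp90 pair, the inducible HSP82 had 1683 and 1619 CPM in the 1 h libraries, against 320.0 and 305 CPM in the 0.5 h libraries (2.40, SE 0.06), and the constitutive HSC82 had 2457 and 2246 CPM in the 1 h libraries, against 1717 and 1579 CPM in the 0.5 h libraries (0.51, SE 0.06). The 5 that fell were CPR7 (-0.58), SSB1 (-0.56), SSZ1 (-0.45), ZUO1 (-0.38) and SSB2 (-0.36), named after their values were seen. SSB1, SSB2, SSZ1 and ZUO1 encode the chaperones that sit on the translating ribosome. Of the 15 genes of the cytosolic chaperonin TRiC and its prefoldin partners, 0 were higher and 13 lower (median -0.35).

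Isoenzyme pairs shifted in their ratios. In 36 pairs of paralogs or enzymes of the same step, 9 had the first gene called higher and the second lower, 8 had the first higher and the second not called, 14 had both higher and 2 both lower. Of all genes, 32.9% were called higher and 32.1% lower. The pairs and the order within each were written with earlier results of these data known. The counts by direction follow in part from that choice and are no test. Levels of the 2 genes of a pair were compared per kb of coding length. The order of the pair by this measure was turned round between the times in 11 of the 36 by the means. For 1 of these, GCY1 over YPR1, it was turned in series b alone, with ratios of 0.899 and 1.14 in the 1 h libraries, against 0.56 and 0.55 in the 0.5 h libraries. Not every turn was a departure from the order at 0 h. The ratio of PGM2 to PGM1 was 1.98 at 0 h, 0.513 at 0.5 h and 3.69 at 1 h. That of NQM1 to TAL1, described next, was 0.0371 at 0 h.

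The pair with the widest shift, NQM1 and TAL1, belongs to the pentose phosphate pathway, which makes NADPH and pentoses. The transaldolase gene NQM1 had 646 and 667 CPM in the 1 h libraries, against 19.3 and 16.8 CPM in the 0.5 h libraries (log2 fold change 5.21, SE 0.08, edgeR adjusted p = 2.1e-20), while TAL1, its major isoenzyme gene, had 277 and 284 CPM in the 1 h libraries, against 321 and 314 CPM in the 0.5 h libraries (log2 fold change -0.17, SE 0.06, edgeR adjusted p = 0.012). The call of TAL1 was lost under 4 alternatives, with adjusted p between 0.0588 and 0.134: library totals alone, thinned libraries, and without 1 h library a or 0.5 h library a. Per kb, the ratio of NQM1 to TAL1 was 2.35 at 1 h, against 0.0572 at 0.5 h. The transketolase gene TKL2 had 866 and 882 CPM in the 1 h libraries, against 42.7 and 49.1 CPM in the 0.5 h libraries (4.23, SE 0.07), and TKL1 had 804 and 831 CPM in the 1 h libraries, against 1256 and 1198 CPM in the 0.5 h libraries (-0.58, SE 0.05). Their ratio per kb was 1.07 at 1 h, against 0.0374 at 0.5 h. The 6-phosphogluconate dehydrogenase genes GND2 (3.76) and GND1 (-0.57) moved in opposite directions, and the 6-phosphogluconolactonase gene SOL4 rose (3.74) beside a change of 0.01 in SOL3 (edgeR adjusted p = 0.94). Over the 13 genes of the pathway, 7 were higher (6 to 7 under the alternatives) and 5 lower (3 to 5). These shares were 53.8% and 38.5%, beside 32.9% and 32.1% of all genes.

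In glucose use, HXK1, a hexokinase gene, had 552 and 569 CPM in the 1 h libraries, against 69.4 and 77.5 CPM in the 0.5 h libraries (log2 fold change 2.92, SE 0.06, edgeR adjusted p = 2.2e-18). HXK2, the main hexokinase gene of cells growing on glucose, had 749.8 and 745 CPM in the 1 h libraries, against 1015 and 1027 CPM in the 0.5 h libraries (-0.45, SE 0.05). The HXK1 to HXK2 ratio per kb was 0.751 at 1 h, against 0.0721 at 0.5 h, so HXK2 stayed the more abundant. The glucokinase genes GLK1 (2.65) and EMI2 (2.86) rose, though GLK1 shares bases with a second coding sequence and its counts are less certain. The hexose transporter gene HXT5 rose (3.60, SE 0.07). PGM2, the phosphoglucomutase gene, rose (2.96, SE 0.07), and PGM1 changed by 0.10 (edgeR adjusted p = 0.23).

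Other pairs did likewise. MPC3, a subunit gene of the mitochondrial pyruvate carrier, had 743 and 728 CPM in the 1 h libraries, against 87.1 and 87.9 CPM in the 0.5 h libraries (3.07, SE 0.07), and its alternative MPC2 had 271 and 253 CPM in the 1 h libraries, against 287 and 282 CPM in the 0.5 h libraries (edgeR adjusted p = 0.14). The MPC3 to MPC2 ratio per kb was 2.48 at 1 h, against 0.272 at 0.5 h. The cytochrome c gene CYC7 rose (2.29, SE 0.17), and CYC1 changed by -0.24 (edgeR adjusted p = 0.21). Between the catalases, the CTT1 to CTA1 ratio per kb was 22.5 at 1 h, against 0.77 at 0.5 h, with a change of 0.10 in the peroxisomal catalase gene CTA1 (edgeR adjusted p = 0.46). The GPD1 to GPD2 ratio per kb was 26.1 at 1 h, against 1.71 at 0.5 h. ALD4, the mitochondrial aldehyde dehydrogenase gene, rose (3.59, SE 0.06).

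**Figure D4:**
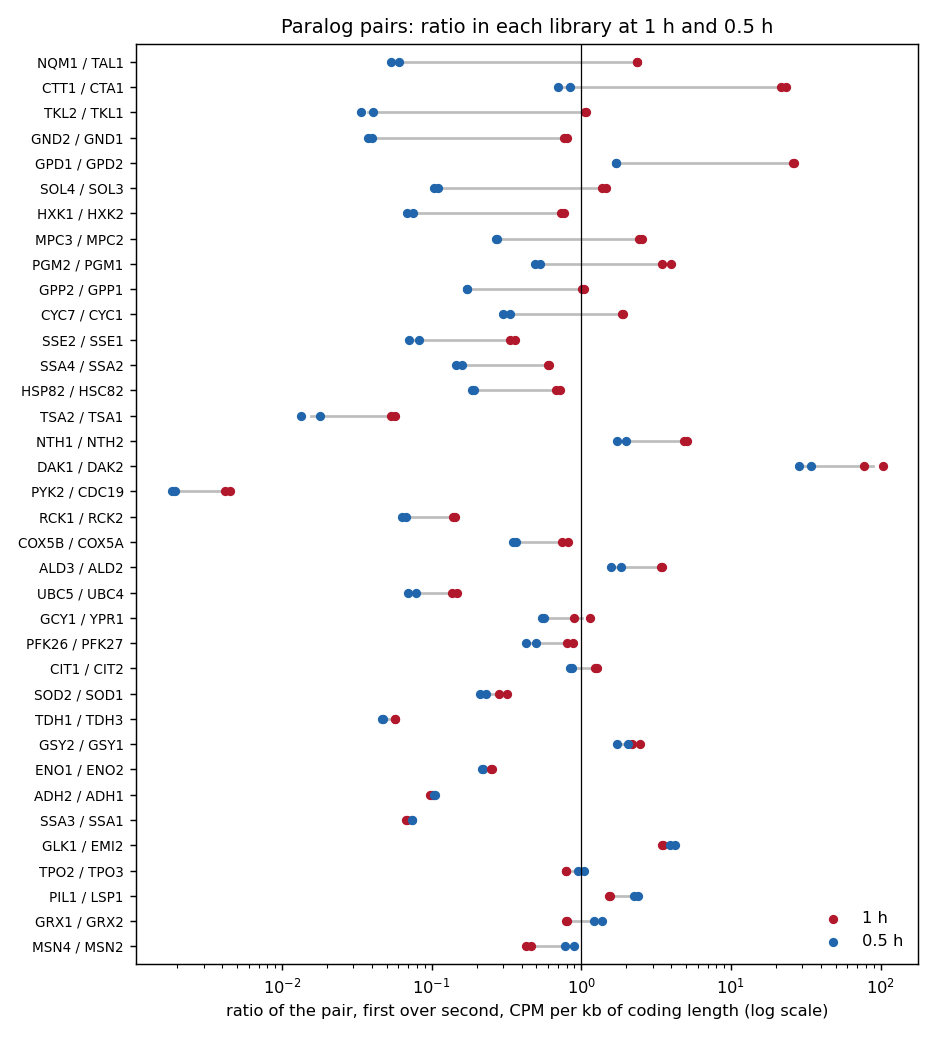
For each of 36 pairs the ratio of the first gene to the second (CPM per kb of coding length, log scale) is shown in each 1 h library (red) and each 0.5 h library (blue), with a line between the ratios of the means; pairs are ordered by the difference of their fold changes. NQM1 over TAL1, at the top, stood at 2.35 at 1 h and 0.0572 at 0.5 h.

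Of 25 sensor, kinase and phosphatase genes of the HOG pathway itself, 4 were higher (4 to 7 under the alternatives, the most with library totals alone) and 10 lower (9 to 13), beside 32.9% and 32.1% of all genes, and 11 were not called, with a median of -0.13. HOG1 had 174 and 169 CPM in the 1 h libraries, against 219 and 199.8 CPM in the 0.5 h libraries (log2 fold change -0.28, SE 0.06, edgeR adjusted p = 0.00033), and these ranges did not overlap. PTP2, a phosphatase gene that acts on Hog1, had 115 and 110.0 CPM in the 1 h libraries, against 56.9 and 59.8 CPM in the 0.5 h libraries (0.93, SE 0.07). SSK1, of the Sln1 branch, rose (0.67), as did STE11 (0.53) and CDC24 (0.34). CLA4 (-0.59) and the osmosensor gene MSB2 (-0.56) fell.

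Of 27 stress transcription factor genes, 16 were higher and 3 lower, beside 32.9% and 32.1% of all genes. From 0 h to 0.5 h, 16 of the 27 had been called lower and 3 higher, beside 27.6% and 26.0% of all genes. Their median log2 change from 0 h to 1 h was 0.04, with 11 called higher and 10 lower. MSN2 had 187 and 184 CPM in the 1 h libraries, against 100.3 and 86.7 CPM in the 0.5 h libraries (log2 fold change 1.00, SE 0.07, edgeR adjusted p = 1.1e-10), and its paralog MSN4 had 71.7 and 76.2 CPM in the 1 h libraries, against 70.4 and 69.0 CPM in the 0.5 h libraries (log2 fold change 0.10, edgeR adjusted p = 0.25). The largest rise of the list was in USV1, a zinc finger regulator gene, with 106 and 123 CPM in the 1 h libraries, against 9.98 and 11.7 CPM in the 0.5 h libraries (3.39, SE 0.11). The log2 change of USV1 had been -2.08 from 0 h to 0.5 h, and it was 1.32 from 0 h to 1 h. XBP1, a repressor gene of stress and quiescence (2.57), and GIS1, a factor gene of the post-diauxic response (1.72), rose also. Of 31 genes of Ras, PKA and Snf1 signalling, 20 were higher and 3 lower. Before, from 0 h to 0.5 h, 20 of the 31 had been called lower and 4 higher. The median log2 change of this list from 0 h to 1 h was 0.01. Those that rose included YAK1, a kinase gene that opposes PKA in growth, with 302 and 312 CPM in the 1 h libraries, against 105 and 92.1 CPM in the 0.5 h libraries (1.66, SE 0.06).

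Several membrane and turnover groups rose, beside 32.9% of all genes called higher and 32.1% lower. Of 17 genes of eisosomes, which are furrows of the plasma membrane, and of the Sur7 family, 14 were higher and 0 lower. FMP45 had 745 and 715 CPM in the 1 h libraries, against 27.4 and 26.6 CPM in the 0.5 h libraries (4.76, SE 0.07), and the related YNL194C had 146 and 142 CPM in the 1 h libraries, against 9.98 and 8.82 CPM in the 0.5 h libraries (3.96, SE 0.10). The core eisosome genes LSP1 (1.90) and PIL1 (1.31) rose less. Of 38 autophagy genes, 29 were higher and 2 lower, with ATG8, the ubiquitin-like protein gene of the autophagosome, at 47.5 and 47.4 CPM in the 1 h libraries, against 16.0 and 18.0 CPM in the 0.5 h libraries (1.46, SE 0.10). Of 44 proteasome and ubiquitin genes, 28 were higher (20 to 36 under the alternatives) and 0 lower (0 to 2), with a small median of 0.22. The polyubiquitin gene UBI4 (2.15) and RPN4, the activator gene of proteasome genes (1.88), led these. Peroxisome and fatty acid oxidation genes were higher in 30 of 48 cases and lower in 3, with POX1, the acyl-CoA oxidase gene, at 1.82. Of 28 genes of meiosis and sporulation, 15 were higher and 1 lower, and the spore wall gene SPS100 rose the most of them (3.92), while IME2, a meiotic kinase gene, rose by 1.80.

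At the plasma membrane, ENA1, the sodium and lithium export ATPase gene, had 347 and 356 CPM in the 1 h libraries, against 138 and 139 CPM in the 0.5 h libraries (log2 fold change 1.34, SE 0.06, edgeR adjusted p = 9.1e-14), and reads could be shared with its tandem copies. HSP30, a stress protein gene that restrains the proton pump, had 249.9 and 243 CPM in the 1 h libraries, against 47.6 and 46.4 CPM in the 0.5 h libraries (2.39, SE 0.07), and had changed by -4.99 from 0 h to 0.5 h. PMA1, the proton pump gene, fell to 4771 and 4919 CPM in the 1 h libraries, against 7342 and 7435 CPM in the 0.5 h libraries (-0.61, SE 0.04). PUT4, a proline permease gene, rose (3.13, SE 0.10), while CAN1, the arginine permease gene, had 37.5 and 13.5 CPM in the 1 h libraries, against 69.0 and 66.5 CPM in the 0.5 h libraries (log2 fold change -1.61, SE 0.29, edgeR adjusted p = 7.5e-05). The CAN1 libraries of the times did not overlap, but those of 1 h were far apart, and the call was lost with the DESeq2 test (adjusted p = 0.0607).

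The falls were small, wide and centred on protein synthesis. Of 141 ribosome biogenesis genes, 139 were lower and 0 higher (138 to 140 and 0 under the alternatives), with a median of -0.62 and a lowest member of -0.96, and the list took 3.03% and 2.94% of the reads at 1 h, against 4.32% and 4.29% at 0.5 h. CIC1, whose upstream window is shown above, had 166 and 162 CPM in the 1 h libraries, against 317 and 321 CPM in the 0.5 h libraries (log2 fold change -0.96, SE 0.06, edgeR adjusted p = 5e-11). NOG1, a GTPase gene of large subunit assembly, had 331 and 354 CPM in the 1 h libraries, against 635 and 652 CPM in the 0.5 h libraries (-0.91, SE 0.06). Of 137 genes of cytosolic ribosomal proteins, 130 were lower and 0 higher (117 to 134 and 0), with a median of -0.48. Their share of reads was 14.1% and 14.7% at 1 h, against 18.9% and 18.7% at 0.5 h. RPS2 had 2636 and 2515 CPM in the 1 h libraries, against 4415 and 4281 CPM in the 0.5 h libraries (-0.76, SE 0.05), and RPP0, of the ribosomal stalk, had 4939 and 4815 CPM in the 1 h libraries, against 7388 and 7006 CPM in the 0.5 h libraries (-0.56, SE 0.04).

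Most other lists of the cytosolic translation apparatus were lower as well. Of 42 translation factor genes, 38 were lower and 1, the helicase gene DED1 (0.48), higher. NIP1, a subunit gene of initiation factor eIF3, had 592 and 626 CPM in the 1 h libraries, against 1176 and 1205 CPM in the 0.5 h libraries (-0.97, SE 0.06), and TIF4631, the eIF4G gene, fell by 0.74 on the log2 scale. Of 20 cytosolic tRNA synthetase genes 19 were lower, VAS1 for valine among them (-0.71). Of 26 genes of RNA polymerases I and III, 21 were lower, including RPA49 (-0.81). Of 71 mitochondrial ribosomal protein genes, 23 were lower (11 to 29 under the alternatives) and 10 higher (6 to 13), a share of lower calls near that of all genes (32.1%), with a median of -0.10. Of these, 11 were lower without 1 h library b and 11 without 0.5 h library b, and 6 were higher without 0.5 h library a. Amino acid synthesis genes were lower in 54 of 64 cases, and ASN1, an asparagine synthetase gene, had 332 and 328 CPM in the 1 h libraries, against 661 and 668 CPM in the 0.5 h libraries (-1.01, SE 0.05). Among the most abundant transcripts, PDC1, the pyruvate decarboxylase gene of fermentation, lost the most in level, with 18714 and 18392 CPM in the 1 h libraries, against 23843 and 22704 CPM in the 0.5 h libraries (-0.33, SE 0.04). The elongation factor genes TEF1 (-0.34) and TEF2 (-0.33), which encode the same protein and may share reads, came next.

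Genes of the cell cycle lists made up 5 of the 9 falls of at least 2-fold, and CAN1 and ASN1, given above, were among the others. The deepest was in DSE2, a gene of daughter cell separation, with 216 and 245 CPM in the 1 h libraries, against 771 and 733 CPM in the 0.5 h libraries (log2 fold change -1.70, SE 0.07, edgeR adjusted p = 2.4e-14). CTS1, the endochitinase gene that parts mother and daughter, had 659 and 654 CPM in the 1 h libraries, against 1500.0 and 1452 CPM in the 0.5 h libraries (-1.17, SE 0.05). SCW11 (-1.06) and EGT2 (-0.92), of the same set of early G1 genes, fell as well, and over that list of 24 genes 15 were lower and 4 higher. Of 32 G1/S genes, 28 were lower and 0 higher, with a median of -0.52. The cyclin gene PCL1 had 49.2 and 53.6 CPM in the 1 h libraries, against 104 and 104 CPM in the 0.5 h libraries. The cyclin gene CLN2 (-0.80), the mannosyltransferase gene MNN1 (-1.06) and RNR1, the ribonucleotide reductase gene (-0.79), were also among them. From 0 h to 0.5 h, 23 of the 32 G1/S genes had been called higher and 2 lower, beside 26.0% and 27.6% of all genes. Their median log2 change from 0 h to 1 h was -0.07. All 8 core histone genes were lower, in a narrow range, with HHF2 at -0.55. ZRT1, the high-affinity zinc transporter gene, had 653 and 628 CPM in the 1 h libraries, against 1409 and 1329 CPM in the 0.5 h libraries (-1.10, SE 0.05). YOR008C-A, at about 2.23 CPM at 0.5 h, was the remaining gene at least 2-fold lower (-1.21, SE 0.45). Its call was lost without 1 h library a (edgeR adjusted p = 0.125), without 0.5 h library a (0.117) and with the DESeq2 test (0.12).

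Genes of replication, the theme of the study's title with RNA:DNA hybrids, were mostly lower: of 53 replication genes, 33 were lower (28 to 38) and 2 higher (1 to 3), with a median of -0.31. From 0 h to 0.5 h, 37 of the 53 had been called higher and 1 lower, beside 26.0% and 27.6% of all genes. Between 0 h and 1 h, 13 of the 53 were called higher and 11 lower. Of 21 genes of RNase H and R-loop factors, 7 were lower (5 to 10) and 6 higher (4 to 8). These shares, 33.3% and 28.6%, were near the 32.1% and 32.9% of all genes. POL32, a subunit gene of DNA polymerase delta, had 29.2 and 26.6 CPM in the 1 h libraries, against 43.0 and 40.3 CPM in the 0.5 h libraries (log2 fold change -0.59, SE 0.11, edgeR adjusted p = 0.00014). RNH1, the gene of RNase H1, had 55.5 and 56.5 CPM in the 1 h libraries, against 66.9 and 58.1 CPM in the 0.5 h libraries (log2 fold change -0.13, edgeR adjusted p = 0.16), and RNH201, of RNase H2, had 56.4 and 58.7 CPM in the 1 h libraries, against 49.2 and 47.7 CPM in the 0.5 h libraries (0.26, edgeR adjusted p = 0.06). The POL32 and RNH1 libraries were lower at 1 h and those of RNH201 higher, without overlap, but only POL32 passed the test. PAB1, the poly(A)-binding protein gene (-0.37), and PUB1, a stress granule protein gene (-0.38), fell. Of 28 stress granule and P-body genes 16 were lower (8 to 16, the lowest with library totals alone) and 8 higher (6 to 9). These are 57.1% and 28.6%, beside 32.1% and 32.9% of all genes. Without 0.5 h library b 9 of the 28 were lower. ACT1, the actin gene, had a change of -0.16 (edgeR adjusted p = 0.011), a call that was lost with library totals alone (adjusted p = 0.158), without 1 h library b (0.0644) and without 0.5 h library a (0.105).

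The interval was then set beside its neighbours. From 0 h to 0.5 h, 1547 genes (26.0%) were called higher and 1643 (27.6%) lower, and from 1 h to 1.5 h, 2028 (34.1%) were called higher and 2023 (34.0%) lower. Each of these comparisons shares libraries with that of 1 h and 0.5 h. For the HOG targets the median log2 changes of the 3 consecutive intervals were -0.20, 3.59 and 0.76. For trehalose and glycogen genes they were -1.18, 2.09 and 0.47. For ribosomal proteins they were 0.48, -0.48 and -1.39, and for ribosome biogenesis 0.41, -0.62 and -1.29. On this log2 scale the largest step of the osmostress list thus lay between 0.5 h and 1 h. That of the translation lists lay after 1 h. By share of reads the order differed for the osmostress list, whose larger gain came after 1 h. It took 6.28% and 6.12% of the reads in 1.5 h libraries a and b. The 1 h libraries gave 2.98% and 2.90%, against 0.445% and 0.446% in the 0.5 h libraries.

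**Figure D5:**
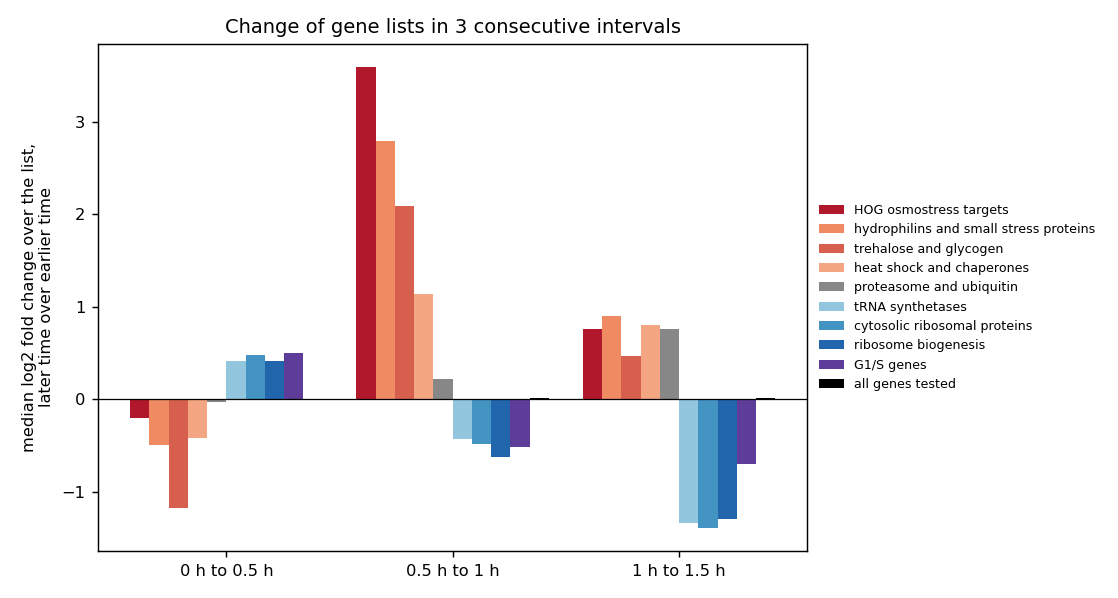
Bars give the median log2 fold change of 9 gene lists and of all genes, later time over earlier time, in 3 consecutive intervals. The HOG target bar stands at 3.59 in the interval from 0.5 h to 1 h and at 0.76 in the next, and the ribosomal protein bar at -0.48 and -1.39.

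The difference between an interval's change and the next was tested gene by gene. The change from 0.5 h to 1 h was the more positive for 1762 genes (29.6%) and the more negative for 790 (13.3%). This split depended on the scaling: the positive share of calls was 69.0%, against 38.9% with library totals alone and 52.3% with upper-quartile factors, and the median difference over all genes moved to -0.15, against 0.10. Without 1 h library b the negative differences numbered 441. The list medians given next were larger than that shift. Among HOG targets 35 of 39 differences were positive (33 to 35 over the alternatives), with a median of 2.62. Among ribosomal proteins 125 of 137 were positive (109 to 128) and 0 negative (median 0.95), their fall before 1 h being smaller than that after it. Among biogenesis genes 114 of 141 were positive (86 to 114), with a median of 0.65. Proteasome and ubiquitin genes went the other way, with 32 of 44 negative (22 to 39) and a median of -0.47.

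Single genes showed the turn. TPS2 had its highest mean at 1 h, 2049 CPM at 1 h and 1680.0 CPM at 1.5 h, and its changes in the 2 intervals differed by 3.57 (SE 0.08, edgeR adjusted p = 2.6e-17). FMP45 rose by 4.76 and then changed by -0.09 (edgeR adjusted p = 0.11). ADE17, a purine synthesis gene, had 54.2 and 61.2 CPM in the 1 h libraries, against 77.6 and 80.6 CPM in the 0.5 h libraries (-0.44, SE 0.08), and then rose by 2.74 to 1.5 h. MET6, the methionine synthase gene, changed by -0.25 and then by 2.14, and HXT2, a glucose transporter gene, by -0.25 and then by 1.97. PUT1, the proline oxidase gene, rose slightly (0.73, SE 0.17) and then by 3.06, the first call being lost without 1 h library b (0.55, edgeR adjusted p = 0.0579).

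Against the interval before, the change from 0.5 h to 1 h was the more positive for 1892 genes (31.8%) and the more negative for 1720 (28.9%). The positive share of these calls was 52.4%, against 63.3% with library totals alone. Among trehalose and glycogen genes 19 of 22 differences were positive, and among ribosomal proteins 135 of 137 were negative.

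Reading frames that lie in ribosomal RNA genes or share sequence with them were among the larger gains in level. Of 8 such frames, 7 were higher (0 to 8 under the alternatives, 0 where these frames were left out of the fit, and 4 without 1 h library a or without 0.5 h library b), beside 32.9% of all genes. Some of the 8 overlap 5S rRNA genes, and reads could be shared between frames. TAR1, which overlaps a 25S rRNA gene, had 5693 and 6014 CPM in the 1 h libraries, against 3179 and 3453 CPM in the 0.5 h libraries (0.82, SE 0.06), and YLR154C-G, which overlaps another, had 5439 and 5463 CPM in the 1 h libraries, against 2291 and 2328 CPM in the 0.5 h libraries (1.24, SE 0.06). RRT15, which overlaps no annotated rRNA gene, had 534 and 549.8 CPM in the 1 h libraries, against 238 and 235 CPM in the 0.5 h libraries (1.20, SE 0.05). From 0 h to 0.5 h the log2 changes had been larger for TAR1 (3.16) and YLR154C-G (3.47). The libraries were poly(A)-selected, and the part of rRNA reads in these counts was not tested.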

How the data were processed

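Messenger RNA of 10 libraries (5 times, 2 libraries each) was measured by poly(A) RNA-seq. The values deposited by the authors are estimated counts per coding sequence in 1 table, of which 2.77% are not whole. Reads were mapped to the R64 genome, per the submitters' processing notes; the aligner, the counter, its use of strand and its treatment of shared reads were not given in the sources used here. The deposited RPKM values were not used.

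Of 65885 lines, 1302 gene and mRNA lines present in 1 library only and 4693 identical repeats were left out, and 59890 were kept, for 5989 coding sequences. Estimated counts were rounded. A low-count filter (filterByExpr) left out 46, and TMM factors ran from 0.8765 to 1.1613. The 5943 others entered edgeR 4.0.16 (R 4.3.3, limma 3.58.1) with a quasi-likelihood fit on the time groups of all 10 libraries, and Benjamini-Hochberg adjustment over all of them at 0.05. The common biological coefficient of variation was 4.05%. Each SE is the size of a log2 fold change over the root of its F statistic. Changes per series were taken on log2(CPM + 1). Fit and calls were first tested on simulated data.

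Libraries of the same time differed beyond counting noise (chi-square per degree of freedom 2.64 at 1 h and 2.24 at 0.5 h). At these depths 3 reads equal 0.777 and 0.382 CPM in the 1 h libraries, and 0.611 and 0.36 CPM in the 0.5 h libraries, a limit that covers counting error only. Whether equal letters pair libraries was checked over 5613 genes of at least 10 CPM: the correlation of series deviations was 0.082 between 1 h and 0.5 h, and -0.119 to 0.314 over all pairs of times, so the letters were not taken as pairs.

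Of the coding sequences, 206 overlap another, so their counts are uncertain. Positions matched R64 for 5975. The comparison, the 55 gene lists and the 36 pairs were chosen with earlier results of these data known, and a list of retrotransposon frames was added after its values were seen. Genes were named by a rule that 292 genes met: the largest called rises, falls, gains and losses among genes of at least 10 CPM whose libraries do not overlap between the times, up to 4 called members of a list, pair members, the largest differences between intervals, and a short set of study and reference genes. The genes named beyond it, after their values were seen, are TIP1, NOP6, CPR7, SSB1, SSB2, SSZ1, ZUO1, FPS1, STE11, CDC24, DED1 and YOR008C-A. In all, 16 alternatives were run, 1 of them (frames in or beside rRNA genes left out before scaling) chosen after seeing the data; the DESeq2 test used DESeq2 1.42.0. Tables were read with Python 3.11.15, numpy 2.4.6 and pandas 2.3.3, and drawn with matplotlib 3.10.9.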

Additional observations from a re-analysis of the deposited data

Results flagged for a closer look

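The change from 0.5 h to 1 h differed from that of the next interval, by a test of the difference itself, for 1762 genes in the positive and 790 in the negative direction, and from that of the interval before for 1892 and 1720.

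In 7 of the genes named above the changes of this interval and the next were called in opposite directions. The difference of the 2 log2 changes was 3.57 for TPS2, -2.22 for HXT2, -2.39 for MET6 and -3.18 for ADE17, and for the frames in or beside rRNA genes it was 1.97 for TAR1, 2.07 for YLR154C-G and 2.08 for RRT15.

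URA3, which is deleted in BY4741, had 4 reads in 1 h library a, against 162 reads in 0.5 h library a, while both b libraries of these times had 0.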

How the results depend on the processing

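Over 16 alternatives the genes called higher ranged between 1446 (DESeq2 test) and 2232 (library totals alone) and those called lower between 1566 (library totals alone) and 2212 (DESeq2 size factors). Leaving out 1 library gave 1641 to 1803 higher and 1576 to 1754 lower. Genes at least 2-fold higher ranged between 473 and 599, and those at least 2-fold lower, 9 in all, were 15 with DESeq2 size factors and 5 with library totals alone. For the difference from the next interval, positive calls, 1762 in all, were 1092 with library totals alone and 1127 with the DESeq2 test, and negative calls, 790 in all, were 1713 with library totals alone and 1224 with upper-quartile factors. Leaving out 1 library gave 1279 to 1659 positive and 441 to 705 negative, the lowest without 1 h library b. The cause of these moves was not tested.

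Of 127 genes named with values, 114 kept their direction and their side of the threshold under every alternative that tested them. The sign was turned for SOL3 with DESeq2 size factors (-0.057), upper-quartile factors (-0.0197), the DESeq2 test (-0.0596) and without 0.5 h library b, and for CTA1 in thinned libraries (-0.0317) and without 1 h library b. Leaving out 1 library gave -0.0162 to 0.0239 for SOL3 and -0.0053 to 0.163 for CTA1. Neither gene was called under these settings. TAL1, CAN1, ACT1, PUT1 and YOR008C-A lost their call as given above. PGM1, MPC2, MSN4, RNH1, RNH201 and FPS1 passed the threshold under 1 to 3 alternatives each.

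With the series letter as a replicate block, 1966 genes were called higher and 1931 lower; 3846 of the 3862 genes called without the block were called with it, with 0 changes of sign, and the block changed 0 calls among the named genes. The interval differences were not fitted on the 4 compared libraries alone, which lack the other times.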

Other observations

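Frames of the Ty retrotransposons moved as a block. All 44 Gag and Pol frames tested were called higher at 1 h (beside 32.9% of all genes), with log2 fold changes between 0.38 and 0.82 and a median of 0.51, and the 30 frames of at least 1000 CPM lay between 0.46 and 0.54. They took 5.38% and 5.67% of the reads in the 1 h libraries, against 3.61% and 3.77% in the 0.5 h libraries. Their median changes in the 3 consecutive intervals were -0.51, 0.51 and -1.14. The copies are near identical, so reads may be shared among them and the frames are not independent, and 40 of the 44 overlap another coding sequence, so only 4 were tested and called when overlapping sequences were left out.

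Other gene groups of the interval were mixed or fell, beside 32.9% of all genes higher and 32.1% lower. Purine and pyrimidine synthesis genes were lower in 24 of 30 cases and higher in 4. Genes of ergosterol synthesis, which makes the main sterol of yeast membranes, were lower in 19 of 30 cases and higher in 5 (1 to 5 under the alternatives, 1 without 1 h library b, 3 without 1 h library a and 3 without 0.5 h library b). Mating genes were lower in 16 of 27 cases and higher in 6 (14 to 17 and 5 to 7). Iron, copper and zinc genes were lower in 18 of 35 cases (13 to 19) and higher in 9 (4 to 11, the fewest without 1 h library b). Amino acid permease and sensor genes were lower in 13 of 26 cases (12 to 13) and higher in 7 (4 to 8), while genes of nitrogen use were higher in 14 of 25 cases (10 to 15) and lower in 5.

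Genes known by a systematic name alone were 26.0% of those at least 2-fold higher at 1 h (141 of 542). They were 20.1% of all those called higher, 5.9% of those called lower and 14.2% of all tested. Genes within 30000 bases of a chromosome end were 7.6% of those at least 2-fold higher. They were 6.6% of all those called higher, 2.5% of those called lower and 6.3% of all.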
